A study of Mus musculus with 24 samples.

Results

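The collagen genes of the mouse liver were followed through its sorted ductal and stromal cells and through a transwell co-culture of both. The members were all gene symbols made of Col, a number, the letter a and a second number. This rule found 44 genes among the 49568 rows of each of the 2 deposited tables. By the structure of their proteins they fell into 11 fibrillar collagens, 9 fibril-associated collagens (FACITs), 6 beaded filament chains, 6 chains of the basement membrane network, 4 transmembrane collagens, 3 short-chain collagens, 2 multiplexins of the basement membrane zone, 1 anchoring fibril collagen and 2 others.

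The homeostasis experiment held 4 fractions sorted from each of 3 littermates, mice A and E (male) and F (female), so that each fraction had n = 3. These mice were 12 weeks old, on a C57BL/6 background and heterozygous for B6.129S4-Pdgfratm11(EGFP)Sor/J, an allele in which the *Pdgfra* locus drives a nuclear GFP; this GFP stood for PDGFRα in the sort, and all 4 fractions carried it. The fractions were EpCAM+ ductal cells (DCs), PDGFRα+SCA1+ and PDGFRα+SCA1- mesenchymal cells and PDGFRα-SCA1+ stromal cells, all gated negative for CD45, CD11b and CD31. The transwell experiment held 6 groups of n = 2 from wild-type C57BL/6 mice of 8 to 12 weeks. Freshly sorted DCs and freshly sorted SCA1+ mesenchymal cells (SCA1+Msc, sorted without PDGFRα) formed the day 0 groups. DCs grown for 15 days as organoids in Matrigel, either alone in growth-factor-rich expansion medium (EM) or above SCA1+Msc in mesenchymal medium (MM), and SCA1+Msc kept for 15 days alone or below DCs formed the rest. The cultured SCA1+Msc had been expanded on the plate for a week before the DCs, from other littermates, were added on a membrane that cells cannot cross.

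Collagens are secreted or membrane-bound proteins whose chains wind into a triple helix, and a chain is stable only once it has found its partners. Type I and type III collagen build the load-bearing fibrils of the portal tract, type V collagen sits inside those fibrils and limits their width, type VI collagen forms beaded filaments around cells, and type IV collagen forms the sheet of the basement membrane on which epithelium and endothelium rest. In the liver, stellate cells and portal fibroblasts are the known makers of fibril collagen, in health and above all in scar.

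Levels were TPM, a share of all transcripts corrected for the length of each gene, or the close relative of TPM that the homeostasis table holds. Both tables were normalised separately, so levels are not set side by side across them. In the homeostasis table the deposited values lie at 0.722 to 1.39 times TPM, by a factor that differs between genes of a sample and between samples of a gene, so levels and ratios within that table carry an error of that size. Differences between groups were tested on log2(level + 1) with limma across all genes of a table, and a gene was called at an adjusted p under 0.05 over all genes tested. Of the 44 members, 32 reached a level of 1 in at least 3 homeostasis samples and were tested among 17028 genes, and 33 reached it in at least 2 transwell samples and were tested among 18136 genes. The libraries held 19.6 to 25.7 M and 19.3 to 28.1 M reads assigned to genes, and a level under 3 reads was treated as not detected at this depth. *Col19a1* and *Col9a1* had no read in any of the 24 samples. The samples hold bulk RNA, so fewer cells of a type and less RNA per cell cannot be told apart.

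The labelled cell types were compared with their marker genes. The summed level of 6 ductal markers was 58481 to 79014 in the DC samples against 83.4 to 377 in the PDGFRα+ fractions, and that of 5 mesenchymal markers was 26022 to 48786 in the PDGFRα+ fractions against 39.8 to 68.8 in DCs. The PDGFRα-SCA1+ fraction went against its label as mesenchyme. *Pdgfra* lay at 0.0276 to 0.0402 there, and the 5 mesenchymal markers summed to 278 to 460. All 6 endothelial markers were above 1 in each of its samples, with a sum of 2565 to 2877 against at most 24.7 in the other fractions, although the gate was negative for CD31, the product of *Pecam1* (726 to 929). It is therefore named here by its gate. Its sample from mouse E also held more ductal marker RNA (3953) than those from mice A and F (82.6 and 349).

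The window of 250 bases before the start of a gene was read for 35 of the 44 members from RefSeq (GRCm38.p6). The 5 windows below belong to the members on which the comparisons turn most: *Col3a1*, first or second in level in every PDGFRα+ and SCA1+Msc sample; *Col5a1* and *Col5a3*, partner chains that changed in opposite directions in culture; and *Col8a1* and *Col13a1*, the members that were higher in the PDGFRα-SCA1+ fraction than in the PDGFRα+SCA1+ fraction. Each is written 5′ to 3′ along the strand of its gene, and capitals mark TATAAA (the TATA box), the letters of a CCAAT box, and the GC box letters GGGCGG, on either strand.
Col3a1, chr1:45311288-45311537, plus strand: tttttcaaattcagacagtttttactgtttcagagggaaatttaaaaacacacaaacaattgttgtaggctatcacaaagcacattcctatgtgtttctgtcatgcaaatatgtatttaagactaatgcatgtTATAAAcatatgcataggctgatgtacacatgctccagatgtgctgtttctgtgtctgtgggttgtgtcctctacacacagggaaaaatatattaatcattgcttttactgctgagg
Col5a1, chr2:27886175-27886424, plus strand: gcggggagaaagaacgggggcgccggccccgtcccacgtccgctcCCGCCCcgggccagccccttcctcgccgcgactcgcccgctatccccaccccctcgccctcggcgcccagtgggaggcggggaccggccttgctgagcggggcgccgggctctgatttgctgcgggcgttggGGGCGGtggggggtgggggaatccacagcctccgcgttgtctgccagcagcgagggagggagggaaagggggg
Col5a3, chr9:20815068-20815317, minus strand: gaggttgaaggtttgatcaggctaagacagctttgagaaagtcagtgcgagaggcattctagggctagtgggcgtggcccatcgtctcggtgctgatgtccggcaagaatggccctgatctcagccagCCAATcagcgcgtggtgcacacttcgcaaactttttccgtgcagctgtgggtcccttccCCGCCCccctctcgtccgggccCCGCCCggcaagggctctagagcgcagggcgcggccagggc
Col8a1, chr16:57754738-57754987, minus strand: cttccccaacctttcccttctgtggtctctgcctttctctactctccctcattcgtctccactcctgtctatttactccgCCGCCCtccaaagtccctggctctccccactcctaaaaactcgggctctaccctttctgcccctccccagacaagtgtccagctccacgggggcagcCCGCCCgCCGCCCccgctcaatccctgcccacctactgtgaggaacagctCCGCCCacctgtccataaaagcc
Col13a1, chr10:61979109-61979358, minus strand: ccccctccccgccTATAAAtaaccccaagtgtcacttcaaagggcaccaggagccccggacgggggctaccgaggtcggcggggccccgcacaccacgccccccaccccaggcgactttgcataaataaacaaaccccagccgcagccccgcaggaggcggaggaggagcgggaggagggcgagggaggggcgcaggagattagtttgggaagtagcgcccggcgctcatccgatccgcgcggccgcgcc
The window of *Col3a1* held 35.2% G or C and a TATAAA that began 117 bases before the start, while that of *Col5a1* held 76.4% G or C and 2 GC boxes. The *Col5a3* window carried 1 CCAAT box and 2 GC boxes, that of *Col8a1* carried 4 GC boxes, and that of *Col13a1* carried a TATAAA 237 bases before the start. Members had several windows where RefSeq gives several starts. Over their 38 windows, 5 (13.2%) held TATAAA, 13 (34.2%) held CCAAT and 22 (57.9%) held GGGCGG. The same letters were in 12.4%, 33.8% and 32.7% of 32851 windows of all genes. A match describes the letters and is not a binding site.

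In the healthy liver, collagen RNA lay in the PDGFRα+ mesenchymal fractions. Summed over the 44 members, the level was 262 ± 21.9 in DCs (mean ± SD, n = 3), 680.2 ± 44.6 in the PDGFRα-SCA1+ fraction, 7326 ± 327 in PDGFRα+SCA1+ cells and 8607 ± 148 in PDGFRα+SCA1- cells. The make-up of that sum differed too. Fibrillar collagens made up 54.2 to 60.5% of the sum in PDGFRα+SCA1+ cells and 54.7 to 60.1% in PDGFRα+SCA1- cells. The multiplexins, here nearly all *Col18a1*, made up 42.2 to 49.8% in DCs, and the type IV chains of the basement membrane network made up 52.4 to 64% in PDGFRα-SCA1+ cells. In the PDGFRα+ fractions 10 or 11 members carried 90% of the sum, and *Col3a1* and *Col1a1* were the first and second of them in all 6 samples, in either order.

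**Figure D1:**
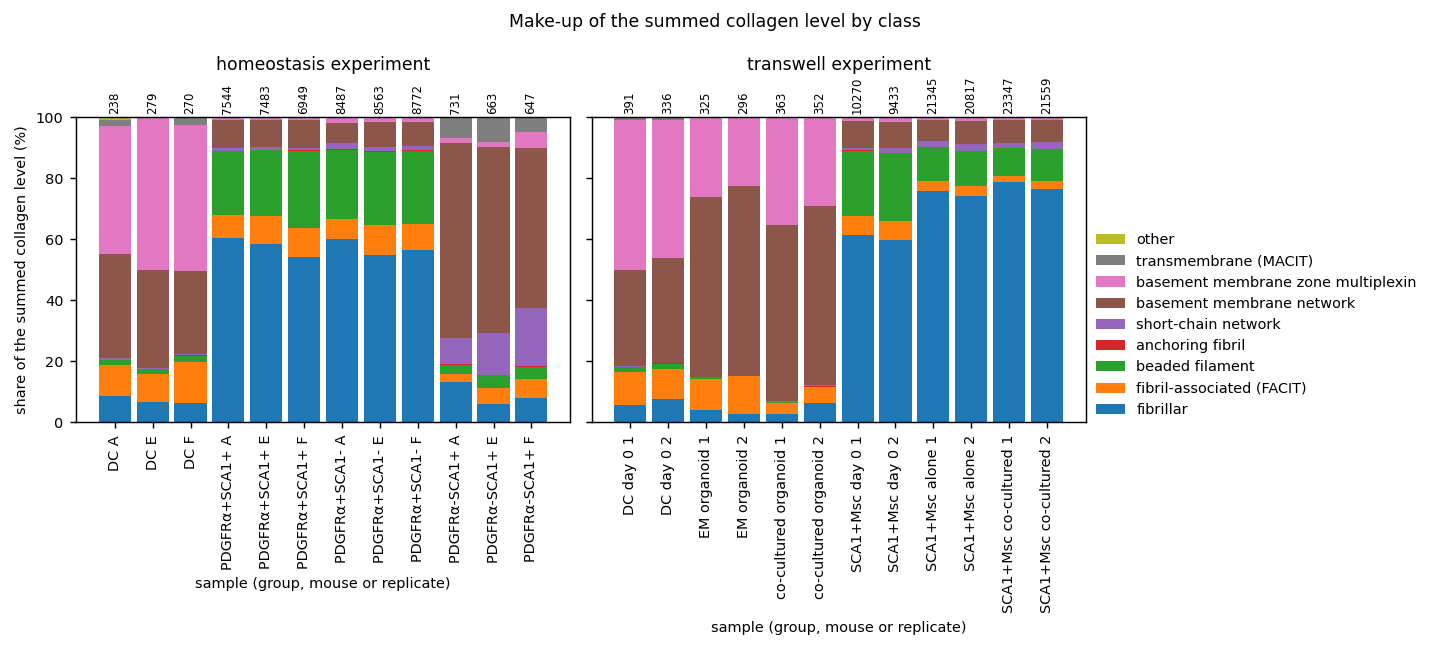
Share of the summed collagen level held by each structural class (vertical axis, percent; stacked colours) in each of the 24 samples of both experiments (1 bar a sample), with the summed level printed above each bar. Fibrillar collagens hold the largest share of every mesenchymal bar, the multiplexins the largest share of fresh DCs, and the basement membrane network the largest share of the PDGFRα-SCA1+ fraction and of both kinds of organoid.

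The 2 PDGFRα+ fractions were compared with DCs to ask which collagens set the mesenchyme apart from ductal cells. In PDGFRα+SCA1+ cells 23 of the 32 members tested were higher than in DCs, where 9.85% of all genes tested were higher, and 1 was lower, where 14% of all genes were. In PDGFRα+SCA1- cells 23 were higher (9.98% of all genes) and 1 was lower (18.9%). The median difference of the members was 3.69 and 4.25 on the log2(level + 1) scale, beside medians of −0.28 and −0.47 over all genes tested.

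Among the fibrillar collagens 6 of the 7 tested rose in each of these comparisons. *Col3a1*, the single chain of type III collagen, lay at 3.31, 4.99 and 3.02 in the DCs of mice A, E and F, at 2232, 1581 and 1718 in their PDGFRα+SCA1+ cells and at 2452, 2139 and 1952 in their PDGFRα+SCA1- cells. *Col1a1*, which encodes the chain present in double dose in type I collagen, lay at 3.10, 1.64 and 3.59 in DCs, at 1371, 1777 and 1160.4 in PDGFRα+SCA1+ cells and at 1582, 1520.5 and 1767 in PDGFRα+SCA1- cells. No mesenchymal sample came near a DC sample for either gene. The fitted differences from DCs were 8.60 ± 0.28 and 8.85 ± 0.28 for *Col3a1* (SE; limma, adjusted p = 3.73e-09 and 4.06e-09) and 8.59 ± 0.57 and 8.79 ± 0.57 for *Col1a1* (limma, adjusted p = 5.47e-07 and 4.98e-07). *Col1a2*, the partner chain of type I collagen, lay at 701, 745 and 631 in PDGFRα+SCA1+ cells against 3.76, 2.99 and 2.42 in DCs. Type V collagen followed: *Col5a1* averaged 106 ± 12 and 115 ± 21.2, *Col5a2* 94.4 ± 25.7 and 133 ± 12.2 and *Col5a3* 38.1 ± 3.5 and 41.3 ± 6.76 in the SCA1+ and SCA1- fractions, and none exceeded 2.02 in a DC sample. The cartilage collagen genes *Col2a1*, *Col11a1* and *Col11a2* did not reach the level needed for a test.

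The chains of type VI collagen, which links fibrils to cell surfaces, behaved like the fibril chains. *Col6a1* lay at 0.587, 2.0 and 2.45 in DCs and at 904, 1033 and 1086 in PDGFRα+SCA1+ cells, a fitted difference of 8.63 ± 0.74 (limma, adjusted p = 4.26e-06). In PDGFRα+SCA1- cells it lay at 1197, 1141 and 1158, a difference of 8.84 ± 0.74 (limma, adjusted p = 3.44e-06). *Col6a2* was at 387, 334 and 361 in PDGFRα+SCA1+ cells and at 524, 580 and 559 in PDGFRα+SCA1- cells, and *Col6a3* at 169, 134 and 195 and at 117, 169 and 167. All 5 type VI chains tested, the late-found relatives *Col6a5* and *Col6a6* included, were called in each PDGFRα+ fraction. *Col6a4* had reads in 1 homeostasis sample, PDGFRα+SCA1- cells of mouse E (3.99), and that sample also held the only *Col2a1* above 1 (17.2).

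The FACITs decorate the surface of fibrils without forming fibrils themselves, and 3 of the 6 tested were higher in each PDGFRα+ fraction. *Col14a1* was the most abundant, at 456, 558 and 560 in PDGFRα+SCA1+ cells and 516, 735 and 604 in PDGFRα+SCA1- cells against 1.85, 0.789 and 3.07 in DCs. *Col16a1* averaged 92.5 ± 7.12 in PDGFRα+SCA1+ cells, and *Col12a1* was far lower at 12.9 ± 3.36. *Col9a3* went the other way. It lay at 12.9, 6.58 and 16.3 in DCs and at 0, 0.821 and 1.58 in PDGFRα+SCA1- cells, a difference of −2.87 ± 0.71 (limma, adjusted p = 0.00964) and the only member lower there. Of its annotated exon bases, 6.07% also belong to *Tcfl5*, and the counting strand was not given in the sources used here.

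Of the 6 chains of the basement membrane network, 5 were called higher than in DCs in each PDGFRα+ fraction. *Col4a1* and *Col4a2*, whose products form the type IV network of nearly all basement membranes, are transcribed head to head on chr8 and overlap by 22 bases at their starts. *Col4a1* lay at 22.9, 36.9 and 23.3 in DCs, 284, 237 and 304 in PDGFRα+SCA1+ cells, 230, 226 and 227 in PDGFRα+SCA1- cells and 178, 200 and 143 in PDGFRα-SCA1+ cells. *Col4a2* lay at 34.3, 25.2 and 25.5, at 236, 234 and 178, at 217, 304 and 286 and at 288, 198 and 192 in the same order. DCs were thus lowest for both, and all 3 stromal fractions were called higher than DCs, by 2.63 to 3.29 for *Col4a1* and by 2.89 to 3.20 for *Col4a2*. *Col4a4* averaged 51.3 ± 6.36 and *Col4a3* 30.5 ± 8.57 in PDGFRα+SCA1+ cells, against 1.82 ± 1.55 and 3.68 ± 1.95 in DCs. These partners also lie head to head, with 0.072 kb between them on chr1. *Col4a6* was called higher in both PDGFRα+ fractions, whereas its neighbour *Col4a5*, at 57.2 ± 14.7 in PDGFRα+SCA1+ cells and 17.4 ± 2.43 in DCs, was called in neither (1.63 ± 0.56 and 1.53 ± 0.56; limma, adjusted p = 0.054 and 0.0603). With the mouse as a block it was called in PDGFRα+SCA1+ cells (limma, adjusted p = 0.0462) and not in PDGFRα+SCA1- cells (0.0508). The call of *Col4a3* in PDGFRα+SCA1- cells was lost without any 1 of 6 samples (adjusted p up to 0.125, without the DC sample of mouse A).

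*Col18a1*, whose product is the heparan sulfate-bearing collagen that yields endostatin, was the main collagen transcript of DCs. It lay at 100.2, 139 and 129 there and at 5.43, 16.8 and 18.0 in PDGFRα+SCA1+ cells, a difference of −3.24 ± 0.57 (limma, adjusted p = 0.00122) and the only member lower in that fraction. In PDGFRα+SCA1- cells it lay at 82.7, 40.9 and 24.2, below all DC samples, and was called only once the highest of these samples, that of mouse A, was left out (limma, adjusted p = 0.0292). *Col15a1*, the other multiplexin, was listed at 0 in all 3 DC samples and lay at 44.3 to 49.4 in PDGFRα+SCA1+ cells and 75.8 to 115 in PDGFRα+SCA1- cells. Both chains of type VIII collagen, a short-chain network former of vessel walls, and the anchoring fibril gene *Col7a1* were called higher in both PDGFRα+ fractions, while neither of the 2 transmembrane collagens tested was. The call of *Col7a1* in PDGFRα+SCA1+ cells (2.07 ± 0.63; limma, adjusted p = 0.0316) was lost without the DC sample of mouse A or E or any 1 PDGFRα+SCA1+ sample (adjusted p up to 0.123).

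**Figure D2:**
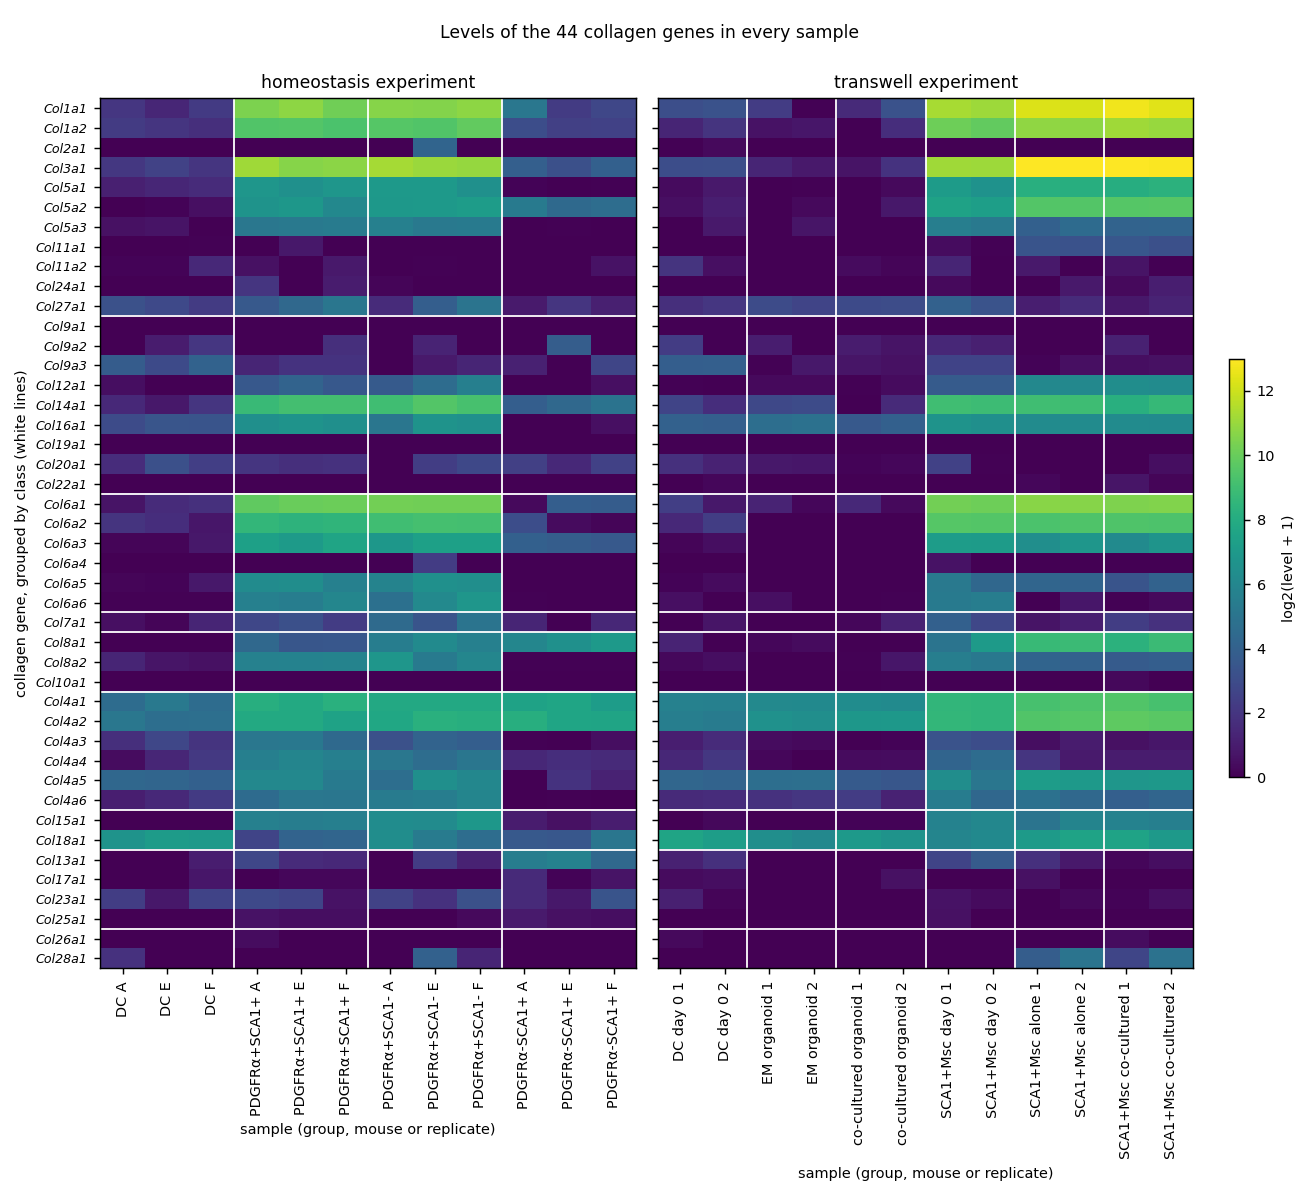
Level of each collagen gene (rows, grouped by structural class) in each of the 24 samples (columns, grouped by fraction or transwell group), coloured by log2(level + 1). The PDGFRα+ and SCA1+Msc columns are bright over the fibrillar and beaded filament rows, and the DC and organoid columns are brightest at *Col18a1*, *Col4a1* and *Col4a2*. *Col4a1* and *Col4a2* are brighter still in the PDGFRα+ and SCA1+Msc columns, and *Col18a1* is also bright in cultured SCA1+Msc.

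Genes that fold, trim, cross-link and sense collagen were described beside the members. Of 43 such genes, 42 were in the table and 40 were tested. Against DCs, 24 rose and 3 fell in PDGFRα+SCA1+ cells, beside 9.85% and 14% of all genes. In PDGFRα+SCA1- cells 26 rose and 3 fell, beside 9.98% and 18.9%. *Adamts2*, which removes the N-propeptide of fibrillar procollagens, averaged 478 ± 81.7 in PDGFRα+SCA1+ cells against 1.95 ± 1.53 in DCs, and *Lox*, which oxidises lysines for cross-linking, averaged 201 ± 56.8 against 0.0893 ± 0.0468. Both differed by 7.5 (SE 0.72 and 0.37; limma, adjusted p = 1.06e-05 and 4.72e-08). *Loxl1*, a relative of *Lox*, led in PDGFRα+SCA1- cells with 675 ± 205 against 3.90 ± 3.08. The receptors split by cell type. *Ddr1*, the collagen-binding kinase of epithelia, averaged 255 ± 38.6 in DCs and 47 ± 18.7 in PDGFRα+SCA1+ cells, and *Itga2*, a collagen-binding integrin chain, 54.4 ± 6.09 and 2.22 ± 1.48. Both were lower in the mesenchyme (differences of −2.47 ± 0.62 and −4.19 ± 0.96; limma, adjusted p = 0.0117 and 0.00668). In PDGFRα+SCA1- cells, *P4ha3*, a catalytic chain of prolyl 4-hydroxylase, lay at 0.928 ± 1.57 against 14.6 ± 4.68, and it was called lower in both PDGFRα+ fractions (−2.05 ± 0.59 with SCA1 and −3.26 ± 0.59 without; limma, adjusted p = 0.0248 and 0.00139).

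The 2 PDGFRα+ fractions were then compared with each other, to ask whether SCA1 divides the mesenchyme by its collagens. No member was called higher or lower by limma, where 0.435% of all genes were higher in PDGFRα+SCA1+ cells and 0.153% were lower. At an unadjusted p under 0.05 there were 4 members: *Col8a1*, *Col18a1*, *Col7a1* and *Col4a3*. *Col8a1* lay at 19.8, 10.3 and 10.5 in PDGFRα+SCA1+ cells and at 45, 72.6 and 50.2 in PDGFRα+SCA1- cells, without overlap, a difference of −2.0 ± 0.41 that missed the threshold (limma, adjusted p = 0.059). It passed in 2 of 21 alternatives. The member median was −0.21 beside 0.15 over all genes, and none of the 40 handling genes tested was called. Smooth muscle markers moved with these fractions: all 4 were above 1 in every PDGFRα+SCA1- sample, with sums of 1236 to 2769, against 3 of 4 and sums of 129 to 169 in PDGFRα+SCA1+ cells. The sums of the 4 portal fibroblast markers (530 to 628 against 288 to 370) and of the 3 stellate cell markers (343 to 957 against 165 to 324) were also higher without SCA1, with no overlap, and all of these markers were above 1 in every sample of both fractions. The part of such RNA in the difference of *Col8a1* was not tested.

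In the PDGFRα-SCA1+ fraction the fibril and type VI chains lay below those of PDGFRα+SCA1+ cells, whereas *Col4a2* of the common basement membrane network was not called lower. Against DCs 8 members were higher (11.5% of all genes), among them *Col4a1*, *Col4a2*, *Col5a2* and *Col6a3*, and 7 were lower (11.3%), with quantile normalization 8 and 4, and the member median was 0.0044 beside −0.04 for all genes. Against PDGFRα+SCA1+ cells 21 members were lower (7.86%) and 2 were higher (10.9%), with a member median of −4.38 beside 0.25. All 7 fibrillar collagens and all 5 type VI chains tested were among the 21, though *Col27a1* was not called without any 1 of 4 samples (adjusted p up to 0.0776, without PDGFRα+SCA1+ cells of mouse F). *Col1a1* lay at 34.2, 3.82 and 5.90 and *Col3a1* at 14.3, 8.09 and 14.8 in this fraction. *Col6a1* lay at 0.242, 13.8 and 12.5, a difference from PDGFRα+SCA1+ cells of −7.32 ± 0.74 (limma, adjusted p = 2.62e-05), and *Col6a2* (−7.28 ± 0.63) and *Col3a1* (−7.13 ± 0.28) came next. *Col5a2* stood out among the fibrillar chains, at 39.2, 21 and 24.2, while *Col5a1* and *Col5a3* did not exceed 0.095 in any sample of the fraction.

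The 2 members higher in the PDGFRα-SCA1+ fraction than in PDGFRα+SCA1+ cells were *Col8a1* and *Col13a1*. *Col8a1* lay at 62.1, 90.9 and 124, above all PDGFRα+SCA1+ samples (difference 2.69 ± 0.41; limma, adjusted p = 0.000613). It was far above DCs, where it had under 3 reads in every sample and was not detected (6.46 ± 0.41; limma, adjusted p = 6.73e-07). Its partner *Col8a2* was not detected in this fraction, with 2 reads in each sample, and lay at 50.5 to 55.9 in PDGFRα+SCA1+ cells. *Col13a1*, which encodes a membrane-spanning collagen, lay at 44.2, 53 and 20.3 against 5.75, 2.04 and 1.81 in PDGFRα+SCA1+ cells (difference 3.27 ± 0.71; limma, adjusted p = 0.00609) and at most 1.06 in DCs (4.87 ± 0.71; limma, adjusted p = 0.000286). The lower members against DCs were led by *Col4a5* (−3.16 ± 0.56), *Col16a1* (−3.06 ± 0.45) and *Col18a1* (−2.84 ± 0.57). Among the other 4, *Col4a6* lost its call without any 1 of 7 samples, *Col9a3* without any 1 of 4, *Col5a1* without the DC sample of mouse E or F, and *Col4a3* without that of mouse E (adjusted p up to 0.138, for *Col4a6* without DCs of mouse F). *Col4a1* differed from PDGFRα+SCA1+ cells by −0.66 and was not called (limma, adjusted p = 0.08), but with the deposited totals undone it was called lower, by −0.78 (limma, adjusted p = 0.0251).

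The handling genes followed the same division, with 18 of 40 lower (7.86% of all genes) and none higher (10.9%) than in PDGFRα+SCA1+ cells, led by *Loxl1* (−7.35 ± 0.83) and *Adamts2* (−6.66 ± 0.72). Against DCs 12 were higher (11.5% of all genes) and 4 lower (11.3%), and *Itga1*, the chain of the integrin that binds type IV collagen, led at 186 ± 64.5 against 8.79 ± 7.83. The sums of endothelial markers given above moved with this fraction, as did those of hepatocyte markers, all 5 of them above 1 in each sample, at 1996 to 6322 against 209 to 1649 in PDGFRα+SCA1+ cells (5795 to 6895 in DCs). Their part in these values was not tested. Without the sample of mouse E, which held the ductal RNA, 14 members were called against DCs and 23 against PDGFRα+SCA1+ cells.

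**Figure D3:**
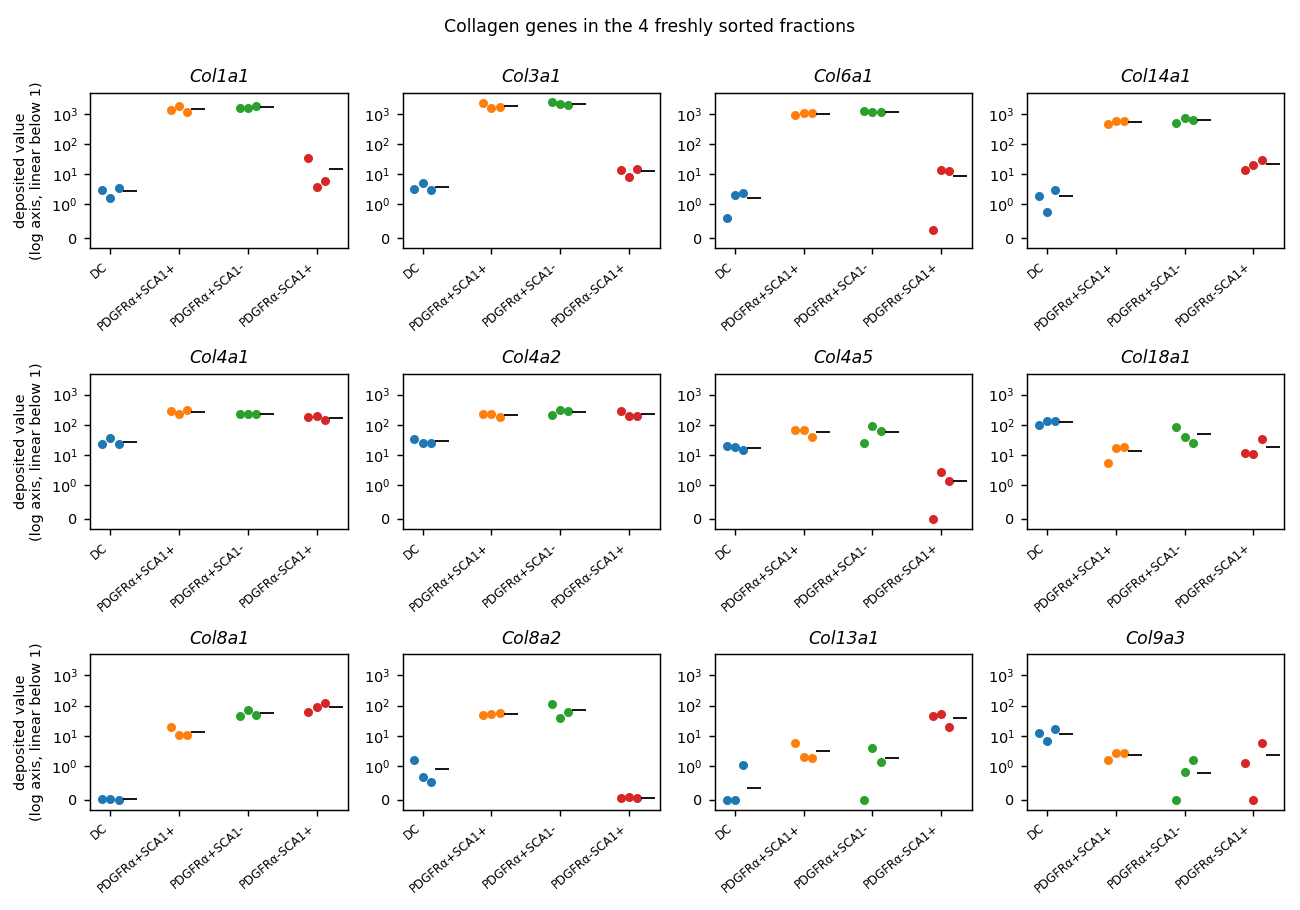
Deposited level of 12 collagen genes (vertical axis, logarithmic and linear below 1) in the 4 fractions sorted from healthy liver, with 1 point for each of mice A, E and F, in that order, and a dash at the mean. *Col8a1* and *Col13a1* are highest in the PDGFRα-SCA1+ fraction, *Col18a1* in DCs, and the type I, III and VI chains in both PDGFRα+ fractions.

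The transwell experiment compared fresh DCs with fresh stroma in other mice, here with SCA1+Msc that were sorted without PDGFRα. In SCA1+Msc at day 0, 26 of the 33 members tested were higher than in DCs (21.4% of all genes) and 2 were lower (24.7%), with a member median of 3.31 beside −0.07 over all genes. The 26 held all 23 members that were higher in PDGFRα+SCA1+ cells of the homeostasis mice, which is 100% of the 23 and 88.5% of the 26. With 26 of 33 called, most of any 23 members would be shared, and the overlap over all genes was not computed. *Col18a1* was lower in both experiments, at 192 and 151 in fresh DCs and 58.9 and 70.1 in fresh SCA1+Msc (−1.40 ± 0.24; limma, adjusted p = 0.00108). *Col6a1* (8.57 ± 0.52), *Col1a2* (8.33 ± 0.43) and *Col3a1* (8.04 ± 0.32) led the rise. Of 38 handling genes tested 26 were higher and 4 lower, led by *Ddr2*, the fibrillar collagen receptor of mesenchyme (6.31 ± 0.24), and *Adamts2* (6.28 ± 0.19) above and by *Itga2* (−4.55 ± 0.30) and *Ddr1* (−3.07 ± 0.30) below. The summed level was 9851 ± 592 in SCA1+Msc and 363 ± 38.9 in DCs (mean ± SD, n = 2). All 5 hepatocyte markers were above 1 in both fresh SCA1+Msc samples, with sums of 15936 and 20516, and 5 of 6 ductal markers were, with sums of 1283 and 2705. All 6 endothelial markers were above 1 there too, with sums of 217 and 229. The part of such RNA in these values was not tested.

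In culture the summed collagen level of SCA1+Msc more than doubled, and the fibrillar share of it was larger. The summed level went from 9851 ± 592 at day 0 to 21081 ± 374 after 15 days alone and 22453 ± 1264 below DCs. The fibrillar share went from 59.8 and 61.4% to between 74.3 and 78.7%, and the type VI share from 21.4 and 22% to between 9.35 and 11.5%, while the summed level of those chains was 2198 and 2071 at day 0 and 2183 to 2392 in culture. Of the 33 members tested, 11 rose (27.4% of all genes) and 9 fell (17.5%) in SCA1+Msc alone, and 11 rose (26%) and 9 fell (17.3%) in co-cultured SCA1+Msc. The member medians were −0.22 and −0.32, beside 0.19 and 0.17 over all genes.

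Among the fibrillar genes, *Col3a1* rose most in level. It lay at 2299 and 2186 at day 0, at 8217 and 7956 in SCA1+Msc alone and at 8283 and 7852 in co-culture, a difference of 1.85 ± 0.32 in each comparison (limma, adjusted p = 0.00129 and 0.00136). *Col1a1* lay at 2507 and 2225 at day 0, 5123 and 4681 alone and 6803 and 5457.5 in co-culture. All cultured samples were above both fresh ones, yet with an SE of 0.66 the differences of 1.05 and 1.37 were not called (limma, adjusted p = 0.233 and 0.128). *Col1a2*, at 1112 and 932 at day 0 and 1763.5 to 2227 in culture, was not called either. Without either EM organoid sample, which enters through the spread shared by all groups, *Col1a1* was called in co-culture (limma, adjusted p = 0.0411 and 0.0409), and without either co-cultured organoid sample *Col1a2* was called in both (adjusted p = 0.00406 to 0.0136).

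The type V chains separated. *Col5a2* rose from 181 and 156 to between 727 and 775 (2.11 ± 0.28 alone and 2.18 ± 0.28 in co-culture; limma, adjusted p = 0.000261 and 0.000223). *Col5a1* rose from 138 and 97.5 to between 275 and 325 (1.31 ± 0.25 and 1.36 ± 0.25). *Col5a3* fell from 46 and 37.4 to between 14.7 and 22.3 (−1.15 ± 0.38 and −1.23 ± 0.38; limma, adjusted p = 0.0335 and 0.0262). The fall of *Col5a3* was not called without any 1 of 7 samples when alone and any 1 of 4 in co-culture, either fresh SCA1+Msc sample included in both (adjusted p up to 0.19, without SCA1+Msc alone replicate 1). The windows of *Col5a1* and *Col5a3* shown above hold 2 GC boxes each. *Col5a2* lies 24.6 kb from *Col3a1* on chr1, on the other strand, and these neighbours rose together. *Col11a1*, which replaces type V chains in cartilage fibrils, appeared: 0.37 and 0.0654 at day 0 became 8.05 to 10.7 in the 4 cultured samples (3.05 ± 0.29 and 3.09 ± 0.29). *Col27a1*, a fibrillar collagen of cartilage and of developing epithelia, fell from 15.4 and 9.12 to between 0.788 and 2.01 (−2.34 ± 0.34 and −2.62 ± 0.34).

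The main type VI chains were not called in culture, and 2 of their relatives fell. *Col6a1* lay at 1219 and 1134 at day 0 and 1416 to 1652 in culture, and *Col6a2*, 85.2 kb from it on chr10, at 754 and 734 and then 630.2 to 694. *Col6a3* lay at 146 and 140 at day 0, 84.3 and 111 alone and 74.7 and 104 in co-culture, just short of a call in the last (−0.69 ± 0.25; limma, adjusted p = 0.0501). *Col6a6*, one of a row of 3 related genes on chr9, was nearly lost: it went from 40.2 and 44.1 to 0 and 0.696 alone and to 0.0689 and 0.242 in co-culture, the largest fall of any member (−5.05 ± 0.36 and −5.23 ± 0.36; limma, adjusted p = 6.13e-06 and 5.37e-06). Its neighbour *Col6a5* went from 37.5 and 19.1 to between 9.36 and 18 and was called in co-culture alone (−1.06 ± 0.38; limma, adjusted p = 0.0445), a call kept in 7 of 21 alternatives and lost without any 1 of 10 samples (adjusted p up to 0.259, without SCA1+Msc co-cultured replicate 1). The difference of *Col6a5* between both cultures was not called (limma, adjusted p = 0.942).

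The FACIT *Col12a1*, a collagen of tissue under tension, rose from 12.1 and 12.3 to 66 and 66.4 alone and 81 and 77.2 in co-culture (2.35 ± 0.23 and 2.60 ± 0.23; limma, adjusted p = 4.6e-05 and 2.5e-05). *Col14a1*, with which it shares its domain plan, lay at 521 and 489 at day 0, 516 and 503 alone and 293 and 417 in co-culture, and was not called. *Col9a3* fell from 5.19 and 5.02 to at most 0.503.

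Among the basement membrane genes, *Col4a1* and *Col4a2* of the common network rose, *Col4a3* and *Col4a4* of the specialised network fell, and *Col4a5* rose. *Col4a1* went from 375 and 356 to between 587 and 718 and *Col4a2* from 387 and 360 to between 704 and 890. Their differences were 0.76 ± 0.11 and 0.96 ± 0.11 alone and 0.85 ± 0.11 and 1.19 ± 0.11 in co-culture. *Col4a3* fell from 8.88 and 7.45 to at most 0.981 (−2.46 ± 0.32 and −2.50 ± 0.32) and *Col4a4* from 17.3 and 22.9 to at most 3.01 (−2.92 ± 0.41 and −3.39 ± 0.41). *Col4a5* went from 83 and 33 to between 114 and 146 (1.35 ± 0.33 and 1.14 ± 0.33; limma, adjusted p = 0.00888 and 0.0208), and *Col4a6* was not called. The call of *Col4a5* was lost without SCA1+Msc alone replicate 1 (limma, adjusted p = 0.057) and, in co-culture, without either co-cultured sample (0.0738 and 0.089). *Col18a1* rose from 58.9 and 70.1 to between 127 and 188 (1.29 ± 0.24 and 1.25 ± 0.24).

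The short-chain pair separated too. *Col8a1* lay at 31.5 and 135 in the 2 fresh samples, which stand far apart, and at 439 and 468 alone and 332 and 462 in co-culture (2.77 ± 0.60 and 2.56 ± 0.60; limma, adjusted p = 0.00436 and 0.00683). With only the groups compared in the fit, or with a pseudocount of 0.1, it was not called in either comparison, nor in co-culture without SCA1+Msc co-cultured replicate 2 (limma, adjusted p = 0.0513). *Col8a2* fell from 46.5 and 36.1 to between 12.3 and 17.2 (−1.28 ± 0.31 and −1.59 ± 0.31). *Col28a1*, whose product is a collagen with von Willebrand factor domains best known from peripheral nerve, was not detected at day 0, with 0 and 1 read. It lay at 13.5 and 31 alone and 5.54 and 28.7 in co-culture (4.41 ± 0.63 and 3.78 ± 0.63; limma, adjusted p = 0.000383 and 0.00102). *Col13a1* fell in both (−1.85 ± 0.44 and −2.82 ± 0.44), alone not without SCA1+Msc alone replicate 2 (limma, adjusted p = 0.0569). *Col7a1* was called lower alone (−2.50 ± 0.51) and was not called in co-culture, with levels of 14.9 and 5.87 at day 0, 0.595 and 1.14 alone and 4.11 and 2.63 in co-culture.

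**Figure D4:**
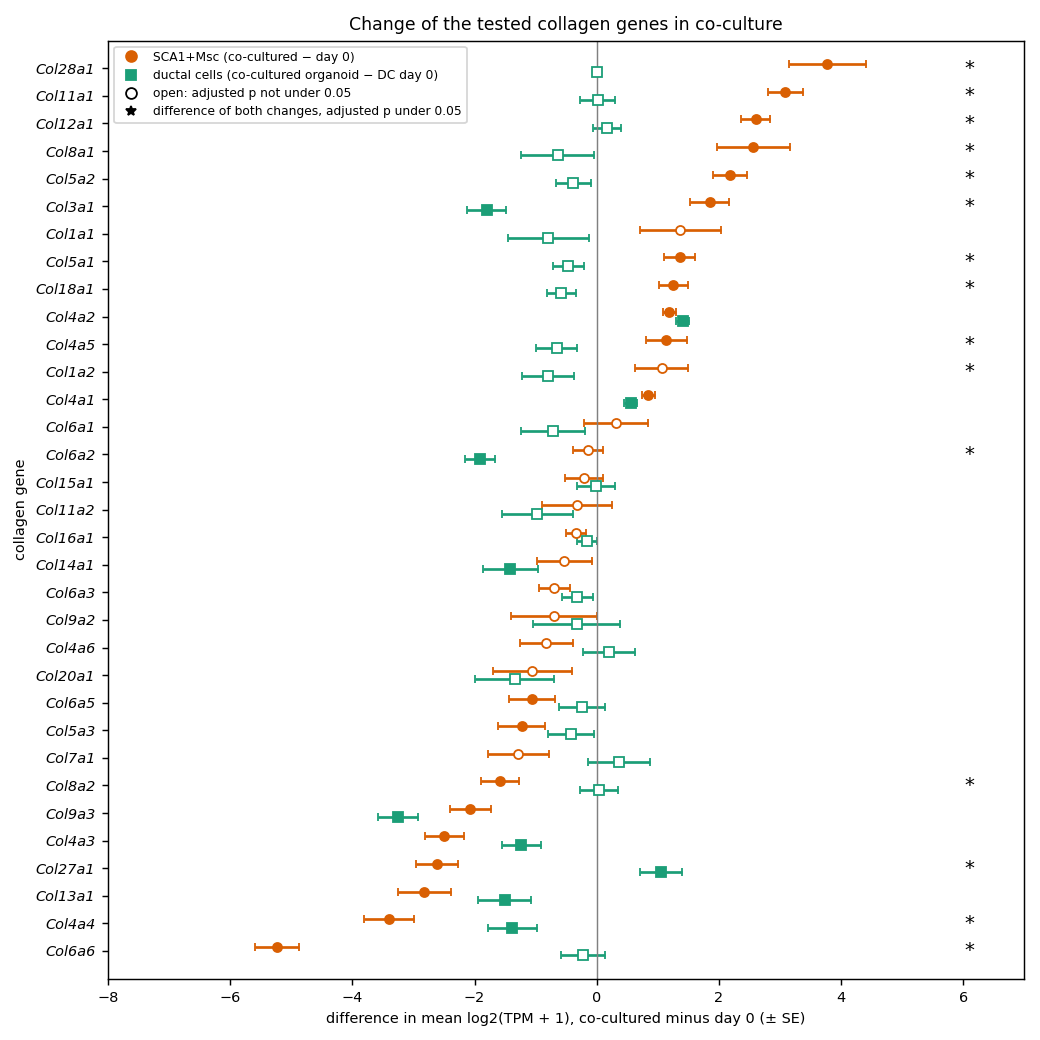
Fitted difference between co-cultured and day 0 samples on the log2(TPM + 1) scale (horizontal axis; point ± SE) for each of the 33 collagen genes tested (rows), as circles for SCA1+Msc and squares for DCs grown as organoids. Filled points passed an adjusted p of 0.05, open points did not, and an asterisk marks genes whose change differed between both cell types; *Col28a1*, *Col11a1* and *Col12a1* lie highest and *Col6a6* lowest in SCA1+Msc.

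Chains of one protein, and *Col3a1* with *Col1a1* of a neighbouring fibril protein, were set against each other as ratios of their levels, which rest on the gene lengths used and are read only between groups. The ratio of *Col3a1* to *Col1a1* was 0.95 ± 0.0464 in fresh SCA1+Msc, 1.65 ± 0.0676 alone and 1.33 ± 0.156 in co-culture (n = 2). That of *Col5a1* to *Col5a2* went from 0.694 ± 0.0984 to 0.395 ± 0.00728 and 0.391 ± 0.0409, and that of *Col8a1* to *Col8a2* from 2.21 ± 2.17 to 27.9 ± 3.4 and 30.3 ± 4.79. The ratio of *Col6a3* to *Col6a1* fell from 0.122 ± 0.00263 to 0.061 ± 0.0141 and 0.0612 ± 0.012. Type I collagen moved less, with a *Col1a1* to *Col1a2* ratio of 2.32 ± 0.0931 at day 0, 2.74 ± 0.125 alone and 2.87 ± 0.257 in co-culture. In the sorted fractions that ratio was 2.06 ± 0.287 in PDGFRα+SCA1+ cells and 2.04 ± 0.143 in PDGFRα+SCA1- cells. With 2 samples a group no test of a ratio was made.

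**Figure D5:**
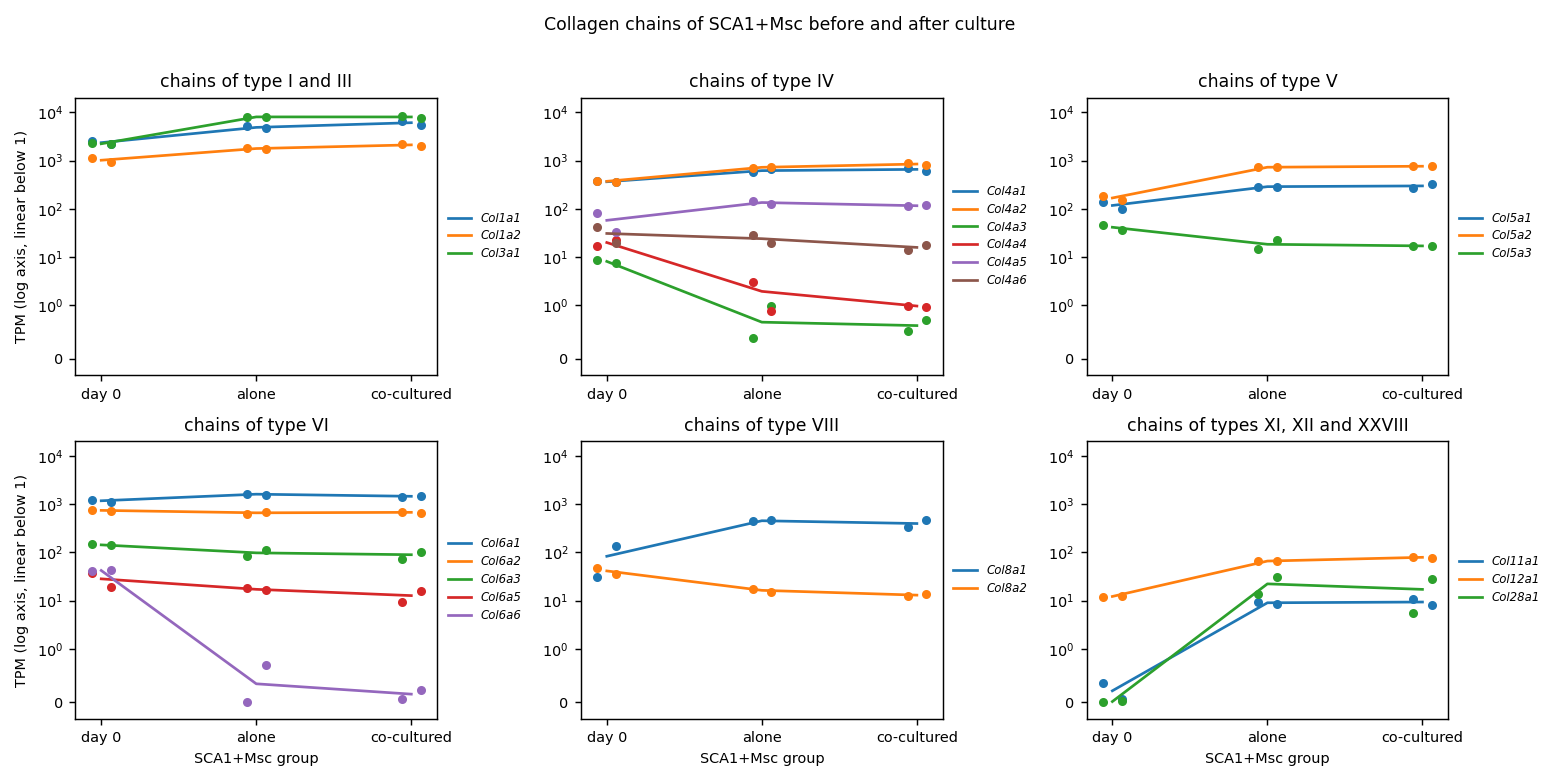
Levels (TPM, vertical axis, logarithmic and linear below 1) of the chains of types I and III, IV, V, VI, VIII and XI, XII and XXVIII in the fresh, lone and co-cultured SCA1+Msc; dots are samples and lines join group means. *Col5a3* and *Col8a2* descend while *Col5a1*, *Col5a2* and *Col8a1* ascend, and *Col4a3* and *Col4a4* descend while *Col4a1* and *Col4a2* ascend.

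Many of the genes that process collagen were called higher in the same cells. Of 38 handling genes tested, 24 rose and 1 fell in SCA1+Msc alone, where 27.4% of all genes rose and 17.5% fell, and 26 rose and 2 fell in co-culture, beside 26% and 17.3%. The medians were 1.08 and 1.20. *P4ha3* went from 3.21 ± 3.74 to 216 ± 16.3 alone and 183 ± 25.2 in co-culture (6.05 ± 0.73 and 5.81 ± 0.73; limma, adjusted p = 0.000146 and 0.000193). *Plod2*, which hydroxylates telopeptide lysines, followed alone (2.95 ± 0.21), and *P4ha2* in co-culture (2.81 ± 0.20). All 5 chaperone or export genes tested and 8 of 10 prolyl hydroxylase genes rose in each comparison. *Colgalt2*, a collagen galactosyltransferase, fell in both (−1.43 ± 0.37 and −1.36 ± 0.37), and *Pcolce*, an enhancer of procollagen cleavage, fell slightly in co-culture (−0.34 ± 0.12; limma, adjusted p = 0.0452). Marker RNA of other cells moved with the culture. The hepatocyte markers summed to 15936 and 20516 at day 0 and to 0.400 to 368 in culture, with *Cps1* and *Tat* listed at 0 in all 4 cultured samples, and the 4 smooth muscle markers to 567 and 778 and then 3123 to 3883. The 6 endothelial markers summed to 217 and 229 at day 0 and to 91.8 to 177 in culture. Their part in the changes of the collagen genes was not tested.

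SCA1+Msc kept below DCs were set against lone SCA1+Msc, a comparison in which few genes of any kind were called. No member was called between co-cultured and lone SCA1+Msc by limma, where 0.0937% of all genes were higher and 0.0331% lower, and no alternative called one. At an unadjusted p under 0.05 there was 1 member, *Col7a1* (1.22 ± 0.51), and none of the 38 handling genes was called. *Col3a1* differed by −0.0037 ± 0.32 and *Col1a1* by 0.32 ± 0.66. These SEs rest on the spread shared by all 12 samples of the experiment, fresh DCs and organoids included, and a moderate change of either gene lies within them.

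As organoids, DCs held a summed collagen level near that of fresh DCs, with a larger share of basement membrane chains. The summed level was 363 ± 38.9 in fresh DCs, 311 ± 20.6 in EM organoids and 357 ± 7.71 in co-cultured organoids. The basement membrane network held 31.4 and 34.5% of the sum in fresh DCs and between 57.9 and 62.3% in the 4 organoid samples. Against fresh DCs 3 members rose (27.1% of all genes) and 8 fell (17.2%) in EM organoids (1 and 7 with quantile normalization), and 3 rose (23.2%) and 7 fell (19.1%) in co-cultured organoids. The member medians were −0.36 and −0.42, beside 0.12 and 0 over all genes.

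*Col4a2* led the rise. It lay at 47 and 41.1 in fresh DCs, 95.1 and 85.1 in EM organoids and 116 and 121 in co-cultured organoids (1.02 ± 0.11 and 1.41 ± 0.11; limma, adjusted p = 5.87e-05 and 8.49e-06). *Col4a1* rose from 52 and 50.4 to 68.7 and 70.6 and to 78.2 and 73.4 (0.44 ± 0.11 and 0.56 ± 0.11), though in EM organoids not without EM organoid replicate 2 (limma, adjusted p = 0.0519). The ratio of *Col4a1* to *Col4a2* went from 1.17 ± 0.0857 to 0.776 ± 0.076 and 0.64 ± 0.0506, so that the 3 groups did not overlap. *Col16a1* was called higher in EM organoids (0.80 ± 0.16) and *Col27a1* in co-cultured organoids (1.05 ± 0.34), the latter not without any 1 of the 4 samples compared (limma, adjusted p up to 0.144, without DC day 0 replicate 1). *Col18a1* lay at 192 and 151 in fresh DCs, 85.2 and 66.7 in EM organoids and 128 and 102 in co-cultured organoids, and was called lower in EM organoids (−1.17 ± 0.24; limma, adjusted p = 0.00331).

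The other falls were in genes with a mean of at most 14.1 in fresh DCs. *Col9a3* went from 14 and 14.2 to at most 0.813 (−3.44 ± 0.33 and −3.25 ± 0.33; limma, adjusted p = 3.25e-05 and 5.07e-05). *Col3a1* went from 7.36 and 7.65 to at most 2.77 (−1.96 ± 0.32 and −1.80 ± 0.32) and *Col6a2* from 1.81 and 4.20 to at most 0.0168 (−1.92 ± 0.25 in each). *Col1a1* was called in EM organoids (−2.03 ± 0.66; limma, adjusted p = 0.0319), a call kept in 11 of 21 alternatives and lost without EM organoid replicate 2 (adjusted p = 0.245), either DC day 0 sample, or any 1 fresh or lone SCA1+Msc sample. *Col4a3*, *Col4a4* and *Col13a1* were called lower in both kinds of organoid and *Col14a1* in co-cultured organoids, each at a mean of at most 3.81 in fresh DCs. Each call was lost without DC day 0 replicate 2 (*Col14a1* without replicate 1, limma, adjusted p of 0.0583 to 0.225). Each was also lost without at least 1 sample of the organoid group compared (limma, adjusted p of 0.0516 to 0.226). Mesenchymal marker RNA moved with these genes: the 5 markers summed to 59.9 and 79.2 in fresh DCs, 0.376 and 1.79 in EM organoids and 0.343 and 4.74 in co-cultured organoids, and *Pdgfra* and *Pdgfrb* were listed at 0 in both EM organoid samples. The hepatocyte markers summed to 4137 and 5238 in fresh DCs, 1404 and 1339 in EM organoids and 153 and 347 in co-cultured organoids. The part of such RNA in these falls was not tested.

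Of the 38 handling genes, 12 rose and 10 fell in EM organoids, where 27.1% of all genes rose and 17.2% fell. In co-cultured organoids 13 rose and 4 fell, beside 23.2% and 19.1% of all genes. *P3h1*, a prolyl 3-hydroxylase, led in EM organoids (2.65 ± 0.21), and *Colgalt1*, the main collagen galactosyltransferase, rose from 52.2 ± 3.48 to 289 ± 34.8 and 310 ± 14.6 (2.44 ± 0.17 and 2.55 ± 0.17; limma, adjusted p = 5.18e-06 and 4.39e-06). *Itga1* rose in both (1.39 ± 0.27 and 2.08 ± 0.27), *Adamts2* fell in both (−2.05 ± 0.19 and −2.22 ± 0.19), and *Fkbp10*, a collagen chaperone, fell in both (−1.91 ± 0.39 and −1.64 ± 0.39).

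Co-cultured organoids were then compared with EM organoids, a comparison in which the medium and the presence of SCA1+Msc cannot be told apart. There 1 member was higher (5.73% of all genes) and 2 were lower (7.21%). The hepatocyte marker sum was lower in co-cultured organoids (153 and 347 against 1404 and 1339). The leukocyte sum, nearly all of it *Cd68*, was higher (57.6 and 87.3 against 20.6 and 19.6), as was the portal fibroblast sum (673 and 722 against 366 and 321), in which 1 of the 4 markers was above 1 in every sample of each kind. Their part in these values was not tested. *Col4a2* was higher by 0.39 ± 0.11 (limma, adjusted p = 0.041), a call kept in 10 of 21 alternatives and lost without any 1 of the 4 organoid samples (adjusted p up to 0.223, without EM organoid replicate 2) or any 1 of the 4 cultured SCA1+Msc samples. *Col16a1* was lower by 0.97, at 11.5 and 14.9 against 25.2 and 28 (−0.97 ± 0.16; limma, adjusted p = 0.00417), and *Col14a1* lay at 0 and 1.93 against 6.06 and 6.85 (−2.12 ± 0.45; limma, adjusted p = 0.0141), lost without either EM organoid sample (0.0692 and 0.0899) or co-cultured organoid replicate 1 (0.0748). Among the handling genes 5 were higher, led by *Loxl4* (3.25 ± 0.46) and *Itga2* (2.25 ± 0.30), and 2 were lower, *P3h1* (−0.96 ± 0.21) and *Crtap*, its partner in the prolyl 3-hydroxylase complex (−0.51 ± 0.11). *Itga2* averaged 141 ± 13.1 in fresh DCs, 30.3 ± 6.37 in EM organoids and 148 ± 30 in co-cultured organoids.

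Whether culture moved the collagens of both cell types differently was tested as the difference between their changes under co-culture. The SCA1+Msc had spent a further week on the plate, while the DCs grew in Matrigel. Cell type, substrate and time in culture therefore cannot be told apart in this test. The change of 11 members was higher in SCA1+Msc than in organoids (14.5% of all genes) and that of 4 was lower (13.8%). The higher ones were 5 of the 9 fibrillar genes tested with *Col28a1*, *Col8a1*, *Col12a1*, *Col18a1*, *Col4a5* and *Col6a2*, and the lower ones were *Col6a6*, *Col27a1*, *Col4a4* and *Col8a2*. *Col3a1* rose by 1.85 in SCA1+Msc and fell by 1.80 in organoids, a difference of 3.65 ± 0.46 (limma, adjusted p = 0.000457). *Col27a1* moved the other way, with a fall of 2.62 in SCA1+Msc, a rise of 1.05 in organoids and a difference of −3.67 ± 0.49 (limma, adjusted p = 0.000625). *Col28a1*, *Col11a1* and *Col12a1* did not exceed 0.296 in any fresh DC or organoid sample, so their differences mostly restate the change in SCA1+Msc. The organoid fall of *Col3a1* was from levels of 7.36 and 7.65 in fresh DCs. *Col6a2* was not called in SCA1+Msc and fell in organoids from lower levels still. Mesenchymal marker RNA was also lower in organoids than in fresh DCs, and its part in these falls was not tested. *Col4a1* and *Col4a2* were called higher in both cell types, and *Col4a3*, *Col4a4*, *Col9a3* and *Col13a1* lower in both. In organoids the calls of *Col4a3*, *Col4a4* and *Col13a1* were each lost when single samples were left out. Of 38 handling genes 18 were higher and 1 lower in this test, led by *P4ha3* (7.30 ± 1.03) and *Fkbp10* (3.75 ± 0.55) above and *Pcolce* (−1.76 ± 0.17) below.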

How the data were processed

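RNA was sequenced by Smart-seq2 in single reads. Per the study's methods, reads were mapped to GRCm38 with STAR (2.5.0a in the submitters' processing notes), filtered with SAMtools and counted over all exons of a gene with featureCounts (1.6.0 in those notes). The counting strand was not given in the sources used here. For the transwell table the authors deposited RPKM values, which were rescaled here to TPM. For the homeostasis table the authors deposited values named TPM that are treated as a signal: their columns sum to 847270 to 1173510, and they equal 0.722 to 1.39 times a TPM that sums to the same total in every sample. The column totals appear to have been recycled along the table before division, so this factor differs between genes of a sample as well as between samples. The values were tested as deposited, and undoing the totals was an alternative, under which no homeostasis call of a member was lost. The authors' group means in that table were not used, and 26 symbols that spreadsheet software had turned into dates were not repaired.

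Groups, mice and replicate numbers were taken from the labels. Where no label says that same-group samples come from separate animals, p-values measure only the spread between these samples. Depth was recovered from low values: 92.9% of 46997 homeostasis values and 93% of 50161 transwell values of up to 20 reads lay within 0.02 of whole reads, and intervals or floors in reads cover counting error only.

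Genes with a level of at least 1 in at least 3 homeostasis or 2 transwell samples were tested as log2(level + 1) with limma 3.58.1 in R 4.3.3 (trend, two-sided, Benjamini-Hochberg over all genes tested), with 1 mean per group and 1 spread shared by all 12 samples of an experiment. The fit was tested on simulated data in which 200 genes differed by 2 on the log2 scale. It recovered 60% of them with 4.76% wrong calls for PDGFRα+SCA1+ cells against DCs (16525 genes), and 98% with 8.84% wrong calls for SCA1+Msc against DCs at day 0 (17536 genes). The changed genes were drawn only from genes with many reads. All genes had the same spread and otherwise the same mean in every group, so these rates do not cover members with low levels. Homeostasis fractions with the same letter come from the same mouse, as the labels state; their deviations from the group means correlated by 0.0039 to 0.0973 in 18 pairs of samples. Sums and ratios over members got no test.

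The members, the gene lists and the rule for named genes were chosen with earlier results of these data known. That rule gave values by sample for members with a group mean of at least 100, and named up to 3 called members with the largest rise and fall in each comparison, partner chains, and up to 2 handling genes each way. Other members are named with their values where a call was of interest after those values were seen. Tables and figures were made with Python 3.11.15, pandas 2.3.3, numpy 2.4.6 and matplotlib 3.10.9. The alternatives were other scalings, filters, pseudocounts and spreads, a change of at least 2-fold, the replicate as a block, and leaving out each sample in turn.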

Additional observations from a re-analysis of the deposited data

Results flagged for a closer look

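The change of 15 collagen genes between day 0 and co-culture differed between SCA1+Msc and DCs grown as organoids (limma, adjusted p under 0.05 for the difference between both changes, over all 18136 genes tested). Each value below is the change in SCA1+Msc minus the change in organoids on the log2(TPM + 1) scale, ± SE. Cell type cannot be told apart here from the substrate (plate or Matrigel) and from the further week that SCA1+Msc spent in culture.

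In 11 genes the change in SCA1+Msc was the higher one, 5 of them fibrillar. Among these the difference was 3.65 ± 0.46 for *Col3a1* (limma, adjusted p = 0.000457), 3.07 ± 0.41 for *Col11a1*, 2.56 ± 0.40 for *Col5a2*, 1.82 ± 0.36 for *Col5a1* and 1.85 ± 0.61 for *Col1a2*. The last lay close to the threshold (limma, adjusted p = 0.0474) and was kept in 6 of 21 alternatives. Beyond the fibrils, the difference was 3.78 ± 0.89 for *Col28a1*, 3.20 ± 0.85 for *Col8a1*, 2.43 ± 0.33 for *Col12a1*, 1.83 ± 0.34 for *Col18a1*, 1.79 ± 0.47 for *Col4a5* and 1.78 ± 0.35 for *Col6a2*. *Col28a1*, *Col11a1* and *Col12a1* did not exceed 0.296 in any fresh DC or organoid sample, so their differences mostly restate the change in SCA1+Msc. *Col6a2* was not called in SCA1+Msc, and its difference came with a fall in organoids from low levels in fresh DCs. The organoid fall of *Col3a1* was also from low levels, 7.36 and 7.65 in fresh DCs.

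In 4 genes the change in SCA1+Msc was the lower one. The difference was −5.01 ± 0.51 for *Col6a6* (limma, adjusted p = 0.000149), −3.67 ± 0.49 for *Col27a1*, −2.01 ± 0.58 for *Col4a4* and −1.63 ± 0.44 for *Col8a2*. *Col6a6* did not exceed 0.431 in any fresh DC or organoid sample.

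The calls of *Col1a2*, *Col4a4*, *Col4a5*, *Col8a1* and *Col8a2* were each lost when single samples were left out, DC day 0 replicate 1 in all 5 cases (limma, adjusted p = 0.0689, 0.0884, 0.0739, 0.085 and 0.0571). Groups of 2 or 3 samples were too small for a search for outlying samples.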

How the results depend on the processing

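Over the 13 tests 193 calls of members were made, of which 138 were kept under every alternative and 141 under every alternative that kept all samples; 0 changed direction. With the deposited homeostasis totals undone, the summed level of DCs became 234 and that of PDGFRα+SCA1- cells 8997. The ratio of *Col6a1* to *Col6a2* became 2.37 with SCA1 and 1.77 without it among the PDGFRα+ cells, and that of *Col6a3* to *Col6a1* became 0.200 with SCA1; 1 member (*Col8a1*) was then called between both PDGFRα+ fractions, as it was with a spread fitted without a trend (1). On the RPKM scale as deposited, the sums were 119.7 in fresh DCs, 106 in EM organoids, 127 in co-cultured organoids, 3369 in fresh, 6748 in lone and 7308.5 in co-cultured SCA1+Msc. Between both kinds of organoid 1 member was called at a change of at least 2-fold and 1 with only the groups compared in the fit. The difference between both cell types was called for 9 members with a pseudocount of 0.1. The reasons for these moves were not tested.

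Leaving out 1 sample gave 6 to 13 calls in EM organoids against fresh DCs (6 without EM organoid replicate 2), 5 to 11 in co-cultured organoids (5 without co-cultured organoid replicate 1, 6 without DC day 0 replicate 2) and 1 to 4 between them (1 without EM organoid replicate 2). With the mouse as a replicate block the 5 homeostasis tests gave 25, 24, 15, 0 and 23 calls, where the reported fits gave 24, 24, 15, 0 and 23. The transwell replicate numbers are only numbers: samples sharing one deviated together by a mean correlation of 0.005, against −0.005 for others. As a replicate block they gave 28, 12, 10, 4, 20, 20, 0 and 15 calls beside 28, 11, 10, 3, 20, 20, 0 and 15, and *Col6a5* in co-cultured SCA1+Msc was not called (limma, adjusted p = 0.0604).

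Quantile normalization moved the median of all genes by 0.34 for PDGFRα+SCA1- and 0.18 for PDGFRα+SCA1+ cells against DCs, by −0.20 for PDGFRα-SCA1+ against PDGFRα+SCA1+ cells, by −0.13 between the PDGFRα+ fractions, and by −0.12 and 0.11 for EM organoids against fresh DCs and co-cultured against EM organoids. With 2 or 3 samples a group and a floor of 3 reads, differences in the lowest members were not detectable at this depth.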

Other observations

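Several further collagens had these levels. *Col4a6*, the partner of *Col4a5* in the basement membrane of smooth muscle and some epithelia, lay at 22.1, 34.9 and 33.3 in PDGFRα+SCA1+ cells and at 42.1, 44 and 59.8 in PDGFRα+SCA1- cells, and at most 0.0576 in the PDGFRα-SCA1+ fraction. The multiplexin *Col15a1* and the FACIT *Col16a1* were not called in cultured SCA1+Msc: *Col15a1* lay at 53 and 64.7 when fresh and 31.6 to 58.3 in culture, *Col16a1* at 102 and 86.9 and then 72.9 to 76.7.

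The cartilage FACIT chain *Col9a2* reached 13.1 in the PDGFRα-SCA1+ sample of mouse E and 0 in those of mice A and F. Among the transmembrane and epithelial members, *Col17a1*, a hemidesmosome component, did not exceed 1.89 in a homeostasis sample, and *Col25a1* did not exceed 0.94. *Col23a1*, another transmembrane collagen, ranged from 0.527 to 9.52 over the sorted samples and overlapped between all 4 fractions.

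The markers of liver mesenchyme subtypes had other levels in cultured SCA1+Msc than in fresh ones, with no test made. The 4 portal fibroblast markers did not go one way: *Fbln2* lay at 68.2 to 244 at day 0 and at 1351 to 1483 in culture, whereas *Cd34* (218 to 260, then 97.5 to 147) and *Eln* (137 to 181, then 19.4 to 25.5) were lower in culture. All 3 stellate cell markers were lower in culture, with sums of 158 and 216 and then 35.2 to 52.7. In fresh DCs that sum (257 and 262) was almost wholly *Rgs5*, with *Lrat* at most 0.567 and *Reln* at most 0.7. The 5 leukocyte markers summed to 304 in the PDGFRα-SCA1+ sample of mouse F, against at most 78.3 in every other homeostasis sample.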
